A study of Gallus gallus with 48 samples.

Results

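IGF-I and IGF2R are 2 of the 17108 genes in a table of FPKM values (fragments per kilobase of transcript, scaled to the mapped fragments of the library) from RNA-seq of chicken tissues. They were selected on measured differences already known in the same liver libraries, where IGF-I was higher and IGF2R lower in Tibetan than in lowland chickens, and the altitude difference of IGF-I in lung was known as well. Those differences are therefore given as a description, with no test. The table held 48 libraries of total RNA from brain, heart, liver and lung, with 12 libraries per tissue in 4 groups of 3. TC libraries came from Tibetan chickens at 3300 m and LC libraries from lowland chickens at 670 m. HLC and LTC were read from their prefixes and altitude labels as lowland chickens at 3300 m and Tibetan chickens at 670 m. The labels gave no agent, and neither they nor the methods read for this work state the breed, sex or age of the birds or how long they lived at each altitude. Whether a group's 3 libraries stand for 3 birds is not stated either, and the p-values below cover only the variation among the libraries at hand.

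IGF-I (ENSGALG00000012755, chromosome 1, IGF1 in RefSeq) encodes insulin-like growth factor I, a growth hormone-dependent hormone that the liver secretes and that acts on growth through the receptor IGF1R. IGF2R (ENSGALG00000011621, chromosome 3) encodes the cation-independent mannose 6-phosphate receptor, which carries newly made lysosomal enzymes from the Golgi apparatus to endosomes. In mammals the same receptor also binds IGF-II and clears it, whereas the chicken protein is known to bind mannose 6-phosphate but not IGF-II. Both genes are protein-coding. The submitters' processing notes name the genome build galGal4, for which no positions are given here.

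Column sums ran from 452395 to 896066, and 8498 to 11325 genes reached 1 FPKM in a library. No pair of libraries held identical values. Summed markers fixed for each tissue were highest in that tissue for brain (629 to 1030 FPKM), heart (455 to 1144 FPKM) and liver (3572 to 16322 FPKM). The liver sum was mostly FABP1 (3277 to 16058 FPKM). Of the other liver markers, OTC, a liver marker in mammals, was listed at 0 in all 12 liver libraries. SLC25A47 had a higher median in brain (13.5 FPKM) than in liver (8.27 FPKM). The 5 lung epithelium markers did not separate lung (32.7 to 106 FPKM) from liver (50.8 to 99.2 FPKM).

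IGF-I was highest in liver, and IGF2R was present in every library with its highest level in lung. The median level of IGF-I was 10.2 FPKM in liver, above the median of 79.9% of genes there. It was 0.656 FPKM in brain, 0.287 FPKM in lung and 0.122 FPKM in heart, where at most 31.7% of genes had a lower median. The median level of IGF2R was 23.2 FPKM in lung, 8.79 FPKM in liver, 6.82 FPKM in heart and 5.84 FPKM in brain. Lung was thus the tissue with most IGF2R transcript per length, and liver the only tissue in which the median of IGF-I exceeded 1 FPKM.

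**Figure D1:**
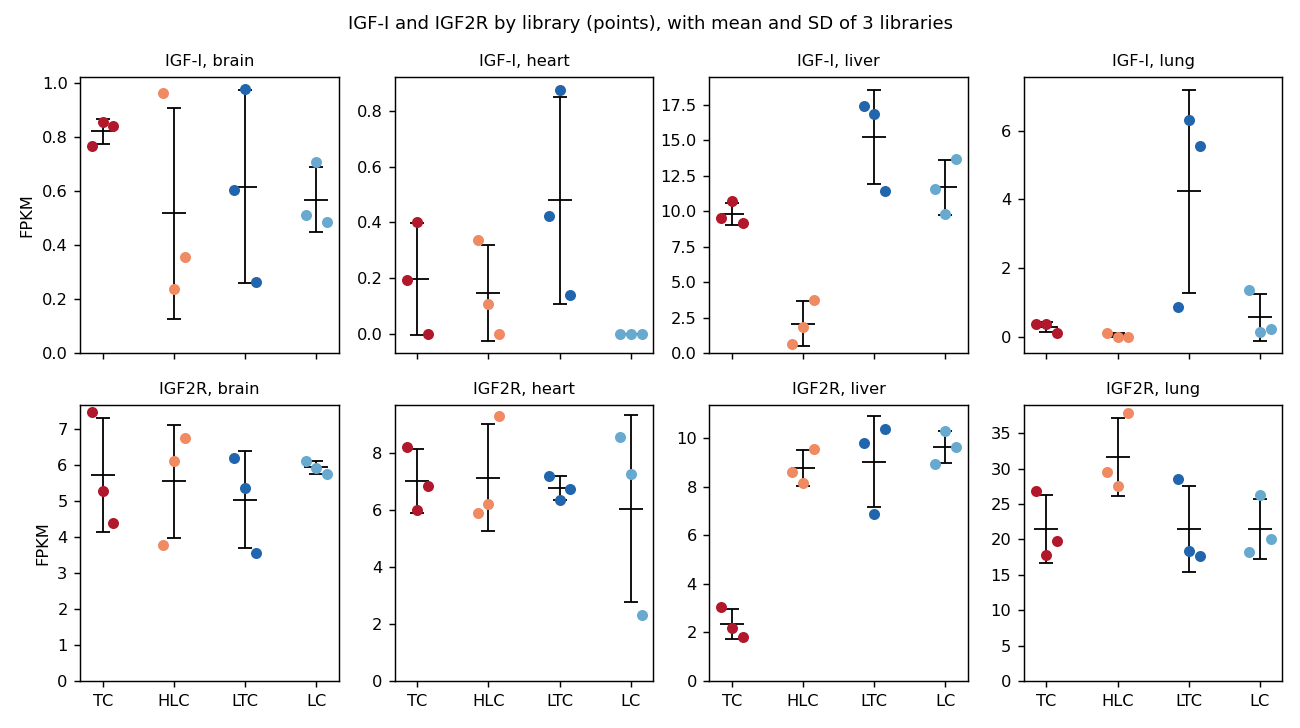
FPKM (vertical axes, a separate scale in each panel) of IGF-I and IGF2R in every library, by tissue and group; points are libraries and black bars the mean and SD of 3 libraries. In liver the 3 HLC libraries are lowest for IGF-I (0.62 to 3.78 FPKM) and the 3 TC libraries are lowest for IGF2R (1.83 to 3.04 FPKM).

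Tissue levels were compared in 1 limma fit of log2(FPKM + 1) over all 48 libraries, with p-values adjusted by Benjamini-Hochberg over 13353 genes. The fit treated the libraries as independent, and whether tissues shared birds is not stated. IGF-I was higher in liver than in lung by 2.36 on the log2 scale (SE 0.17), than in brain by 2.46 and than in heart by 2.90. These are descriptions, since IGF-I entered the fit through 11 liver and 3 lung libraries, and all brain and heart libraries were under 1 FPKM. Brain, heart and lung were therefore not ordered by it, and their fitted differences are values only (-0.09 for brain minus lung, -0.54 for heart minus lung and 0.45 for brain minus heart).

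IGF2R was lower in liver than in lung by 1.67 on the log2 scale (SE 0.13, adjusted p = 1.4e-14). It was also lower than in lung in heart (-1.70, adjusted p = 1.3e-14) and in brain (-1.92, adjusted p = 3.1e-16). Heart and liver (-0.03, interval -0.29 to 0.24), brain and heart (-0.22, interval -0.48 to 0.04) and brain and liver (-0.24, interval -0.51 to 0.02) did not differ past the threshold. Brain became lower than heart and liver after quantile normalization (-0.88 and -1.06), and the brain to heart difference passed without heart LC replicate 3 (-0.34, adjusted p = 0.0047). Differences between tissues were the rule in this table. The share of genes past an adjusted p of 0.05 was 80.0% for brain and heart, 85.7% for brain and liver, 83.9% for brain and lung, 72.2% for heart and liver, 83.9% for heart and lung and 86.6% for liver and lung.

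In the order of the 16 group means, the highest IGF-I levels were those of liver LTC (15.3 ± 3.32 FPKM, SD, n = 3), LC (11.7 ± 1.97) and TC (9.80 ± 0.767). Their ranges overlapped as neighbours, and all 9 libraries stayed above the next group, lung LTC (4.24 ± 2.96). Liver HLC came next (2.09 ± 1.59) and overlapped lung LTC. For IGF2R the 4 lung groups came first, from HLC (31.7 ± 5.50) to LTC, LC and TC (each 21.5), and lay apart from liver LC (9.65 ± 0.688). The liver, heart and brain groups then overlapped neighbour by neighbour down to brain LTC (5.03 ± 1.35). Liver TC was last (2.36 ± 0.618), below every library of brain LTC and, of the libraries in other groups, overlapping only heart LC replicate 3 (2.33 FPKM).

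In liver IGF-I and IGF2R each had 1 group far below the other 3, and it was not the same group. The IGF-I levels were 0.620, 1.86 and 3.78 FPKM in HLC, against 9.54, 10.7 and 9.19 in TC. They were 17.4, 16.9 and 11.4 FPKM in LTC and 11.6, 9.79 and 13.7 in LC. Every HLC library was thus below every other liver library, while TC lay just under LTC and overlapped LC. The IGF2R levels were 3.04, 2.2 and 1.83 FPKM in TC, against 8.62, 8.15 and 9.57 in HLC. They were 9.83, 6.90 and 10.4 FPKM in LTC and 8.96, 10.3 and 9.66 in LC. Every TC library was below every other liver library, and the other 3 groups overlapped.

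**Figure D2:**
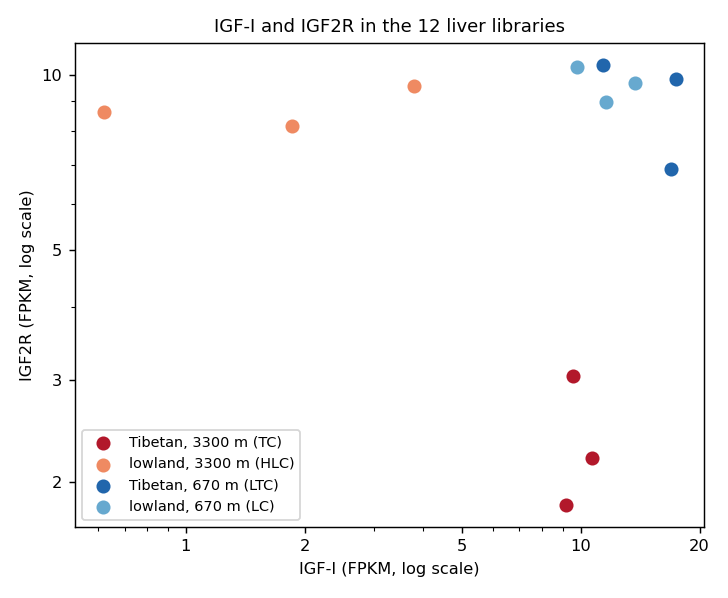
IGF-I (horizontal, FPKM, log scale) and IGF2R (vertical, FPKM, log scale) in the 12 liver libraries, 1 point per library, coloured by group. HLC lies to the left within the IGF2R range of the 670 m libraries (8.15 to 9.57 FPKM), TC lies below the rest (IGF2R 1.83 to 3.04 FPKM), and the 670 m libraries share the upper right.

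The ratio of IGF2R to IGF-I, both per kilobase, is given as a description, since genes chosen for being higher and lower in Tibetan liver must part these groups in their ratio. It was 13.9, 4.37 and 2.53 in HLC and 0.319, 0.207 and 0.200 in TC. In the 670 m groups it was 0.565, 0.407 and 0.906 in LTC and 0.772, 1.06 and 0.704 in LC, between the HLC and the TC values. In bulk tissue, fewer cells of a type and less RNA per cell cannot be told apart.

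Described on the log2(FPKM + 1) scale, which understates changes of low values, IGF-I at 3300 m was higher in TC than in HLC by 1.94 (SE 0.31). The 3 TC libraries all lay above the 3 HLC libraries, as did 10.4% of genes tested in liver, and this contrast belongs to those that chose the gene. At 670 m the difference was 0.35 (SE 0.31). From 670 m to 3300 m IGF-I was lower by 2.17 (SE 0.31) in lowland chickens, with no overlap, as for 28.7% of genes in that direction. In Tibetan chickens the altitude estimate was -0.57 (SE 0.31), also with no overlap in a direction that 46.4% of genes shared.

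IGF2R at 3300 m was lower in TC than in HLC by 1.55 (SE 0.17), without overlap, as for 31.5% of genes, whereas the estimate at 670 m was -0.10 (SE 0.17). With altitude its estimate was -1.58 (SE 0.17) in Tibetan chickens and -0.12 (SE 0.17) in lowland chickens. The sign of the last value turned to 0.04 after quantile normalization and to 0.01 after upper quartile scaling. Over both altitudes, the type estimate was 1.14 (SE 0.22) for IGF-I and -0.83 (SE 0.12) for IGF2R. These values chose the members, in a contrast in which 11.0% of genes passed.

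The altitude difference over both chicken types in liver is a description too, because the HLC libraries low in IGF-I and the TC libraries low in IGF2R are at 3300 m and were among the values that chose the genes. For IGF-I it was -1.37 on the log2 scale (SE 0.22), with a mean of 5.94 FPKM in the 6 libraries at 3300 m and 13.5 FPKM at 670 m. For IGF2R it was -0.85 (SE 0.12), with means of 5.57 and 9.34 FPKM, and it rests on TC, since the estimate in lowland chickens was -0.12. Of the 9944 genes tested in this contrast with limma 51.3% passed, 9.74% higher and 41.6% lower, so a fall in liver at 3300 m was common.

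The median gene shifted by -0.25 on the log2 scale with altitude in liver, and by -0.01 after quantile normalization, where 1753 genes were higher and 1809 lower in place of 969 and 4136. Upper quartile scaling gave 1686 higher and 2580 lower. The altitude values after quantile normalization were -1.16 for IGF-I and -0.55 for IGF2R.

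Other values moved with the same liver groups. The TC libraries held the most transcript of FABP1, the liver fatty acid-binding protein, at 13019 to 16058 FPKM against 3277 to 4800 in the other 9 libraries. They also had fewer genes at 1 FPKM or more (8498 to 8839, against 8858 to 9675) and the lowest upper quartile of genes above 0 (8.31 to 10.4 FPKM, against 10.6 to 12.2). IGF2R in TC against HLC, a contrast among those that chose the gene, was -1.55 in the main fit. It was -1.26 after quantile normalization and -1.41 after upper quartile scaling. The part of these library differences in it was not tested. The 5 summed lung epithelium markers were 50.8 to 60.6 FPKM in TC and 77.4 to 99.2 FPKM in the other 9 libraries, without overlap. Most of these sums was CDH1 (median 64.7 FPKM in liver), and EHF and AGR3 had medians under 1 FPKM. The summed connective tissue markers were 100 to 117 FPKM in LTC and 43.6 to 68.9 in the other liver groups. The part of cell makeup in the levels of IGF-I and IGF2R was not tested.

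**Figure D3:**
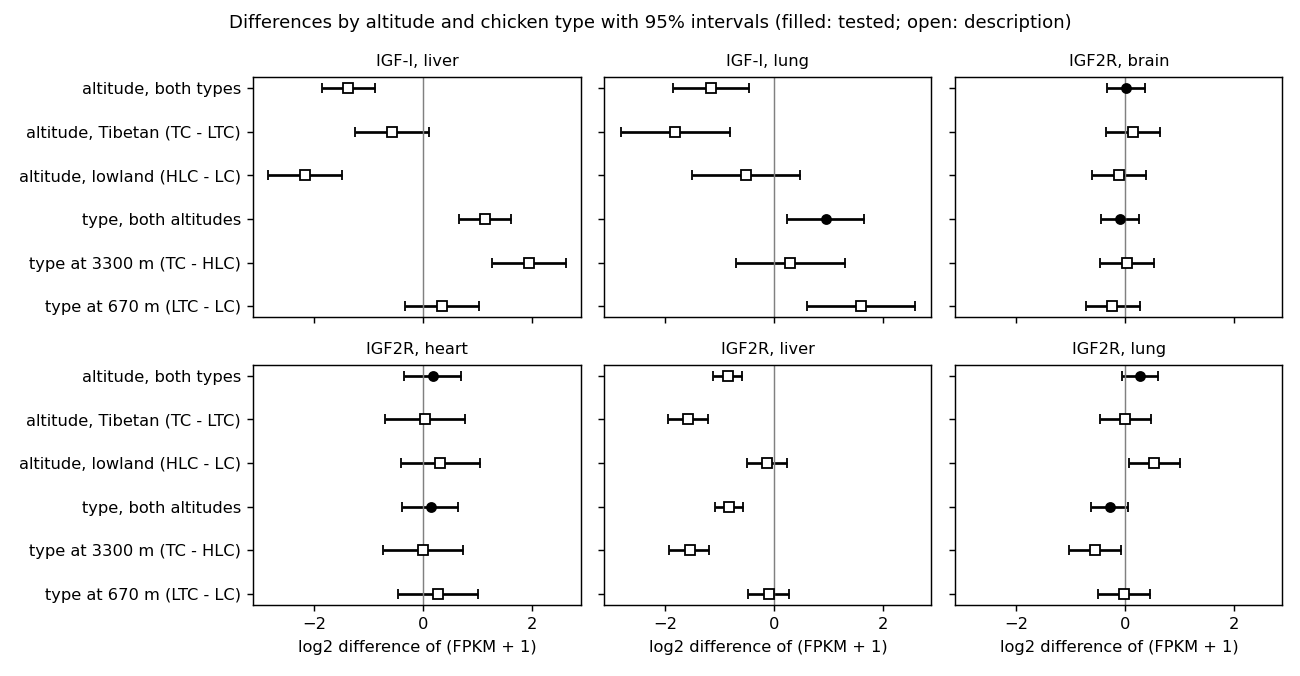
Differences of IGF-I and IGF2R in log2(FPKM + 1) (horizontal) by altitude (3300 m minus 670 m) and chicken type (Tibetan minus lowland), in each tissue where the gene passed the filter, with 95% intervals from limma. Filled circles are tested contrasts and open squares descriptions, but the filled circle of IGF-I by type in lung is read as a description too. In liver the estimates of IGF2R are -1.58 by altitude in Tibetan chickens and -1.55 by type at 3300 m. Those of IGF-I are -2.17 by altitude in lowland chickens and 1.94 by type at 3300 m. The intervals of descriptions are not read as tests against 0.

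In lung IGF-I was low except in LTC. The values were 0.849, 6.32 and 5.54 FPKM in LTC and 1.36, 0.140 and 0.206 FPKM in LC. At 3300 m they were 0.372, 0.368 and 0.105 FPKM in TC, and HLC had 0.108 FPKM in 1 library and was listed at 0 in the others. Only 3 of the 12 lung libraries reached 1 FPKM, so IGF-I passed the filter on low values (1 FPKM in at least 3 libraries) through a pair of LTC libraries and 1 of LC. The altitude estimate, known when the gene was chosen, was -1.16 (SE 0.32), with -1.81 (SE 0.45) in Tibetan and -0.52 (SE 0.45) in lowland chickens. At levels mostly under 1 FPKM these sizes rest on the pseudocount, and with 0.1 in place of 1 they were -2.54, -3.19 and -1.90. In both chicken types the 3300 m libraries lay below those at 670 m, as did 23.2% of genes in Tibetan and 13.6% in lowland chickens. In lowland chickens only 0.108 FPKM in HLC and 0.140 FPKM in LC set the groups apart. Both are near the smallest IGF-I value above 0 (0.105 FPKM), so no order of HLC and LC is read from them. LTC had a wide spread, and its replicate 1 lay within the range of LC.

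The difference of IGF-I between chicken types in lung is a description as well. IGF-I passed the filter mainly through LTC libraries, the group in which it was high, so no test is read from it. The limma estimate was 0.95 (SE 0.32, interval 0.24 to 1.65), in a contrast in which 0.0431% of 11601 genes passed. The estimate at 670 m was 1.59 (SE 0.45) and at 3300 m 0.30 (SE 0.45). With a pseudocount of 0.1 the estimates were 2.13 over both altitudes, 2.78 at 670 m and 1.48 at 3300 m.

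Summed connective tissue markers (SPARC, COL5A1, COL6A2, MMP2, LOXL2 and SFRP2, all present) moved with IGF-I in lung. The sum was mostly SPARC, with a lung median of 519 FPKM beside 674 FPKM for the sum. COL5A1, LOXL2 and SFRP2 had lung medians of 6.51, 4.2 and 6.43 FPKM. SPARC was also high in brain (median 287 FPKM). The sums were 776, 1466 and 1663 FPKM in LTC in the order of the IGF-I values above, and 1204, 654 and 1269 in LC. At 3300 m they were 515, 509 and 694 in TC and 539, 421 and 361 in HLC. The pair of LTC libraries with IGF-I above 5 FPKM had the highest marker sums, while LC replicate 3 had a high sum with IGF-I at 0.206 FPKM. Summed brain markers were also high in LTC lung (51.9 to 68.2 FPKM), where only LC replicate 3 reached that range (53.0 FPKM) and the lowest HLC library had 8.64 FPKM. Their part in the IGF-I difference was not tested.

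**Figure D4:**
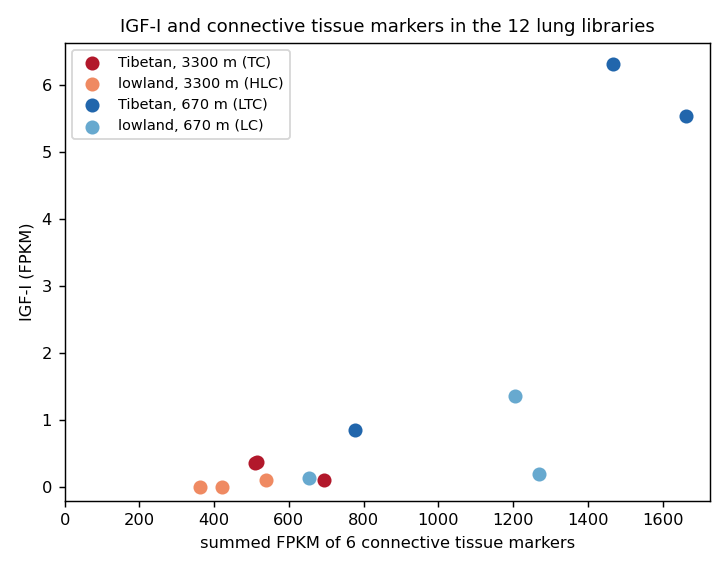
IGF-I (vertical, FPKM) against the summed FPKM of 6 connective tissue markers (horizontal) in the 12 lung libraries, 1 point per library, coloured by group. Most of the sum is SPARC. IGF-I exceeds 5 FPKM only in the LTC libraries with marker sums of 1466 and 1663 FPKM; an LC library with a sum of 1269 FPKM has IGF-I at 0.206 FPKM.

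IGF2R in lung was highest in HLC. Its levels were 29.6, 27.5 and 37.9 FPKM in HLC, 26.9, 17.8 and 19.8 in TC, 28.5, 18.4 and 17.6 in LTC and 18.2, 26.3 and 20.1 in LC. The HLC libraries lay above all LC libraries (12.5% of genes did so) and above all TC libraries (11.9% of genes were lower in TC in this way), but overlapped LTC. The fitted contrasts did not pass. Altitude gave 0.27 (SE 0.15, adjusted p = 0.23), against 17.1% of genes past the threshold. Type gave -0.28 (SE 0.15, adjusted p = 0.40), and the difference between the altitude effects of the chicken types was -0.53 (SE 0.31, adjusted p = 0.46), where 0.509% of genes passed. HLC replicate 3, the highest of these libraries, also had the highest summed heart markers in lung (45 FPKM, against at most 3.10). Without it the altitude estimate was 0.21 (adjusted p = 0.40).

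In brain and heart the IGF2R groups overlapped throughout. Brain levels ran from 3.55 to 7.47 FPKM (median 5.84) and heart levels from 2.33 to 9.30 FPKM (median 6.82). In brain the estimates were 0.02 for altitude (interval -0.33 to 0.37, adjusted p = 0.97), -0.09 for type (interval -0.44 to 0.25, adjusted p = 1.0) and 0.27 for the difference between altitude effects (adjusted p = 0.82). In heart they were 0.18 (interval -0.34 to 0.70, adjusted p = 0.99), 0.14 (interval -0.38 to 0.65, adjusted p = 0.82) and -0.28 (adjusted p = 0.71). All signs in heart rested on LC replicate 3, the lowest at 2.33 FPKM, without which the values were -0.06, -0.10 and 0.19. Few genes passed in these tissues: in brain 2.26% for altitude, 0.00861% for type and 0.0344% for the difference between altitude effects, and in heart 0.0193%, 0.00964% and 2.79%. The last share stood for 19 genes higher and 270 lower, with a median gene at -0.47, and became 19 and 8 after quantile normalization and 11 and 8 after upper quartile scaling.

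IGF-I did not reach 1 FPKM in any brain or heart library, and it was not tested for altitude or chicken type there. In brain it ran from 0.237 FPKM in HLC to 0.979 in LTC, and the TC libraries were close together at 0.768, 0.856 and 0.839. In heart it was listed at 0 in 5 libraries, among them all 3 of LC, and was highest in LTC at 0.423, 0.876 and 0.139 FPKM. With values this low and no fragment counts, no order of the groups was read from them.

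Within groups, the relation between IGF-I and IGF2R was read as a test only in liver, where it did not pass a threshold of 0.05. Residuals from the group means of log2(FPKM + 1) were correlated over the 12 libraries of each tissue, with an exact permutation of the pairing within groups (2-sided, smallest possible p 0.000772 without ties). Tied IGF-I values of 0 within a group make that limit larger in heart and lung. In lung Pearson's r was -0.679 (p = 0.0602, adjusted over 4 tissues 0.241) and Spearman's rho -0.620 (p = 0.0972, adjusted 0.389). Without LTC replicates 1 and 2 r was -0.475. Most of the IGF-I spread within lung groups was in LTC (SD 2.96 FPKM, against at most 0.685 in the others). IGF-I passed the filter mainly through that group, so the lung values are descriptions and no test is read from them. In liver r was -0.0191 (exact p = 0.933) and rho -0.0490 (exact p = 0.885), with r of -0.369 without HLC replicates 1 and 3. Brain gave r of -0.180 (exact p = 0.623) and rho of -0.231 (exact p = 0.532), and 0.180 without HLC replicate 1 and LTC replicate 2. Heart gave r of -0.205 (exact p = 0.176) and rho of -0.282 (exact p = 0.236), and -0.258 without LTC replicates 2 and 3. IGF-I was under 1 FPKM in every brain and heart library and listed at 0 in all heart LC libraries. The brain and heart values are therefore descriptions, and no test is read from them.

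Other genes of the pathways could be followed where the study's supplementary gene list paired an ID with a symbol, which it did for 1182 genes. The study describes that list as its genes under positive selection in chicken breeds, so it is not a neutral sample of genes. Both members are on it. Of 45 other genes listed for IGF and insulin signalling 14 had an ID, and of 27 for mannose 6-phosphate and lysosome 16. IGF1R, GHR, M6PR and the IGF-binding proteins were not analysed here for that reason. In liver 6 of 10 tested genes of the first list passed for altitude, 1 higher and 5 lower, and 10 of 15 of the second, all lower, against 9.74% higher and 41.6% lower among all genes. The median differences were -0.35 and -0.32, beside -0.25 for all genes. Both lists were chosen with earlier results of these data known. These counts, and the p-values of list genes below, therefore describe these libraries only.

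The gene that rose was GSK3B, the kinase that insulin and IGF signals inhibit, by 0.62 (SE 0.17, adjusted p = 0.011). Its levels were 29.5, 14.4 and 15.9 FPKM in HLC and 9.02, 8.79 and 11.7 in TC, and in the 670 m groups they ran from 7.17 to 11.5. The rise thus rested on the 3 HLC libraries, which lay above all others, while TC overlapped the 670 m groups. Of the genes tested in liver, 10.3% were higher in HLC than in LC without overlap. The genes that fell were PDE3B, an insulin-activated phosphodiesterase (-0.75), SOS1, which activates Ras downstream of receptor kinases (-0.58), TBC1D1, a Rab regulator phosphorylated by AKT (-0.45), SOCS5, of the suppressors of cytokine signalling (-0.44), and AKTIP, an AKT-binding protein (-0.42). For TBC1D1 the TC libraries (2.44 to 3.19 FPKM) lay below every other liver library, and HLC (4.19 to 6.84 FPKM) overlapped both 670 m groups. After quantile normalization GSK3B, PDE3B and SOS1 still passed.

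Among genes of the lysosomal route, DNAJC13, an endosomal chaperone that acts with the retromer, fell by 1.03 (SE 0.13, adjusted p = 0.00014). Its levels were 2.02, 1.24 and 1.49 FPKM in TC and 3.03, 3.36 and 3.75 in HLC, and all 6 libraries lay below those at 670 m (4.52 to 7.37 FPKM), as for 14.2% of genes. LIPA, the lysosomal acid lipase, fell by 0.74 (adjusted p = 0.0029) and ATP6V1H, a subunit of the proton pump of lysosomes, by 0.55 (adjusted p = 0.0013). Smaller falls were those of VMA21, an assembly factor of that pump (-0.47), FAM21A, of the WASH complex on endosomes (-0.46), VPS18 (-0.38) and VPS53 (-0.32), subunits of tethering complexes, PPT1, a lysosomal thioesterase (-0.31), and STX16, a Golgi syntaxin (-0.23). For ATP6V1H, FAM21A, VPS18, VPS53 and STX16 every TC library lay below every other liver library, and HLC overlapped both 670 m groups. VPS53, for example, was at 3.17 to 3.50 FPKM in TC and 5.10 to 5.78 in HLC. Between TC and LTC, 46.4% of genes were lower in TC without overlap. GNPTAB, which encodes the enzyme that begins the mannose 6-phosphate tag bound by IGF2R, was lower by 0.38 (SE 0.14, adjusted p = 0.043), with 7.28, 4.34 and 3.32 FPKM in TC and 7.29 to 9.17 in the other 9 libraries. Only DNAJC13, LIPA and ATP6V1H still passed after quantile normalization or upper quartile scaling, and STX16 changed sign with the former (0.0516). GNPTAB lost its call without any of 9 single libraries, TBC1D1, PPT1 and STX16 each without any of 8, and FAM21A without any of 3.

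**Figure D5:**
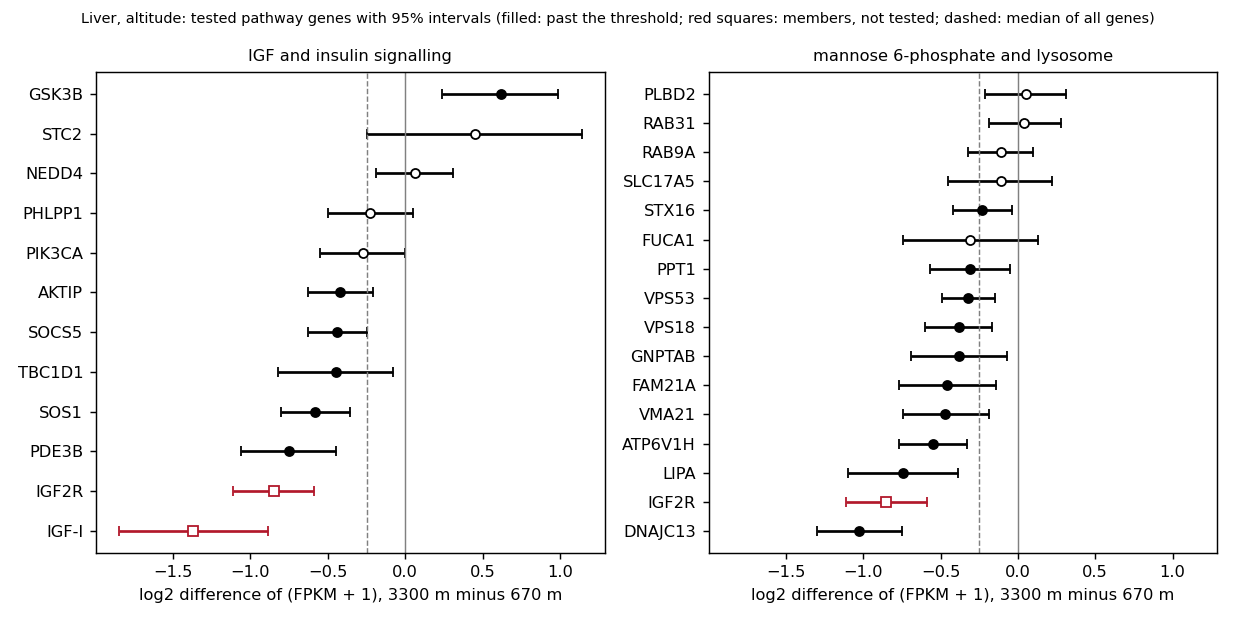
Altitude differences (3300 m minus 670 m, log2 of FPKM + 1) with 95% intervals in liver for the tested genes of both pathway lists. Filled points passed the adjusted threshold, and the dashed line is the median of all genes (-0.25); GSK3B (0.62) is the only filled point above 0. The members are open red squares, as descriptions.

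For chicken type in liver no gene of the first list passed, and in the second VPS53 was lower in Tibetan chickens (-0.36, adjusted p = 0.020), where 8.58% of all genes were lower; it did not pass without LTC replicate 2 (adjusted p = 0.054), after quantile normalization (adjusted p = 0.083) or after upper quartile scaling (adjusted p = 0.057). The altitude effects of the chicken types differed in liver for STC2, the stanniocalcin that in mammals blocks the protease PAPPA and so the release of IGF, by 4.01 (SE 0.64, adjusted p = 0.0063). STC2 was at 16.4, 5.59 and 13.7 FPKM in TC against 1.22, 2.2 and 0.442 in LTC, and at 4.84, 4.51 and 1.69 in HLC against 8, 20.7 and 10.4 in LC. It was thus higher at 3300 m in Tibetan and lower in lowland chickens without overlap, as for 11.7% and 28.7% of genes in each direction. PIK3CA, the catalytic subunit of the kinase that relays the IGF-I signal, gave -0.90 (adjusted p = 0.038) and ATP6V1H -0.67 (adjusted p = 0.049), and neither passed after quantile normalization. In that contrast 14.0% of genes passed, and the estimates of the members themselves, 1.59 (SE 0.44) for IGF-I and -1.45 (SE 0.24) for IGF2R, are descriptions.

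In lung IGF2BP3, an RNA-binding protein of IGF2 mRNA, was lower at 3300 m by 0.75 (SE 0.09, adjusted p = 0.00080). Its levels were 0.852 to 1.39 FPKM in the 6 libraries at 3300 m and 2.36 to 2.85 in those at 670 m, a separation found in that direction for 3.66% of genes. NEDD4, a ubiquitin ligase (-0.27, adjusted p = 0.046), and FUCA1, a lysosomal fucosidase (-0.25, adjusted p = 0.049), were also lower, and RAB9A, which returns mannose 6-phosphate receptors to the Golgi apparatus, was higher (0.36, adjusted p = 0.027). NEDD4 and FUCA1 each lost the call when any of 10 single libraries was left out, and RAB9A with any of 6. These were 2 of 12 and 2 of 16 tested genes, beside 5.57% of all genes higher and 11.6% lower. In brain PHLPP1, a phosphatase of AKT, was higher at 3300 m (0.47, SE 0.09, adjusted p = 0.024), 1 of 13 genes tested where 1.97% of all genes were higher, and it lost the call without any of 6 single libraries. In heart SLC17A5, the lysosomal sialic acid exporter, differed in its altitude effect between chicken types (-1.55, adjusted p = 0.046). It was 1 of 15 genes tested, where 2.60% of all genes passed as lower. It did not pass with a pseudocount of 0.1 (adjusted p = 0.051), no filter (0.073), quantile normalization (0.18) or upper quartile scaling (0.14).

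The named genes whose 16 group means were most like those of IGF2R, by Pearson correlation over 1089 genes with a symbol, were GNPTAB (0.96), MTMR10 (0.95), PKN2 (0.95), COG5 (0.94) and ITCH (0.94). GNPTAB had a median of 26.3 FPKM in lung and 7.71 FPKM in liver, beside 23.2 and 8.79 FPKM for IGF2R. GNPTAB also lies near IGF-I on chromosome 1, with 5 protein-coding genes between them in the RefSeq table of a later assembly. Among the genes most like IGF-I were KCNB2 (0.91), GFRA3 (0.89), IL20RA (0.89) and MAN1A1 (0.88), each with a higher median in liver than in lung.

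Over the 12 liver libraries and 754 named genes, IGF2R was most like NF1 (0.98), the iron exporter SLC40A1 (0.98) and BTAF1 (0.97) and least like FABP1 (-0.96), TCEB3 (-0.95) and PCBD2 (-0.94). IGF-I was most like QDPR (0.80), ERLIN1 (0.80) and DAAM2 (0.79) and least like GSK3B (-0.92), HSD17B12 (-0.85) and the stress-induced factor ATF3 (-0.83). The points of these correlations share groups and tissues, so they describe a likeness of pattern only.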

How the data were processed

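Total RNA from 4 tissues was sequenced in 48 libraries prepared with the Illumina TruSeq RNA kit. The authors deposited 1 table of FPKM per gene and library, made with TopHat and Cufflinks 2.2.1 on galGal4 as the submitters' processing notes name them. Neither the annotation release and options nor the use of strand is stated in what was read for this work. For genes under 0.3 FPKM, the ratio of each library to 1 reference library was divided by the commonest such ratio. Over libraries, a median of 24.3% of the results lay within 5% of 1, 2, 3, 1/2 or 1/3. That was too few to recover counts, so the depth in fragments is unknown and no counting interval is given.

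Per tissue, genes reaching 1 FPKM in 3 or more of 12 libraries were fitted with limma 3.58.1 in R 4.3.3 on log2(FPKM + 1), with 1 mean per group and a mean-variance trend. The 2-sided p-values were adjusted by Benjamini-Hochberg over all genes tested, with a threshold of 0.05. The fit was tested on simulated data. Contrasts were altitude, chicken type and the difference between altitude effects. A fit of all 48 libraries with 16 group means compared tissues. The members, the pathway and marker lists and the tests were chosen with earlier results of these data known. The altitude test of both members in liver was planned, but is given as a description, because the libraries that chose the genes set it. The tissue differences of IGF-I and its type difference in lung are descriptions too, because of the libraries through which it passed the filter. So are the within-group relations in brain, heart and lung, because IGF-I was low in most of those libraries. The genes named were both members, list genes past the threshold, the 5 genes with a symbol most like each member over group means, and the 3 most and 3 least like over the liver libraries; 1 gene that this rule names is not reported here. Symbols came from the study's supplementary gene list of positively selected genes (1182 genes, 6.91%). The pathway lists, the markers and the likeness rankings are therefore limited to genes on it. Alternatives were a pseudocount of 0.1, no filter or a mean of at least 5 FPKM, quantile normalization, upper quartile scaling, no trend, 1 fit of all libraries, a replicate block and leaving out each library.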

Additional observations from a re-analysis of the deposited data

Results flagged for a closer look

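Altitude effects (3300 m against 670 m) that differed between Tibetan and lowland chickens are collected here, each as the effect in Tibetan minus that in lowland chickens on the log2(FPKM + 1) scale. In liver the value was 1.59 for IGF-I and -1.45 for IGF2R, in genes that were chosen on these libraries. The altitude estimate was further from 0 in lowland chickens for IGF-I and in Tibetan chickens for IGF2R. Among the pathway genes, limma gave differences past the adjusted threshold for STC2 (4.01), PIK3CA (-0.895) and ATP6V1H (-0.666) in liver and for SLC17A5 (-1.55) in heart. Of all genes tested, 14.0% passed in this contrast in liver and 2.79% in heart. STC2 passed under each alternative in which it was tested. PIK3CA, ATP6V1H and SLC17A5 did not pass when most single libraries were left out (10, 11 and 9 of 12). The pathway lists were chosen with earlier results of these data known, so these repeats describe the same libraries only.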

How the results depend on the processing

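The tissue differences of IGF2R between lung and the other tissues kept their direction and passed under every alternative run. Under quantile normalization and upper quartile scaling, IGF2R gave -0.0195 and -0.0227 for altitude in brain, 0.27 and 0.0949 for the difference between altitude effects in heart, -0.88 and -0.68 for brain minus heart, and -1.06 and -0.77 for brain minus liver; IGF-I gave 0.0653 and 0.31 for brain minus heart, and under quantile normalization -0.20 for heart minus lung. A pseudocount of 0.1 gave 0.41 for IGF-I in brain minus lung and a liver within-group r of 0.0182, which was 0.0783 after upper quartile scaling. A single fit of all libraries gave 0.95 for IGF-I by type in lung. STX16 in liver reversed to 0.0516 under quantile normalization.

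Leaving out 1 library gave, for IGF2R, -0.0746 to 0.128 for altitude and -0.199 to 0.00338 for type in brain, -0.0565 to 0.325 for altitude, -0.0999 to 0.281 for type and -0.568 to 0.195 for the difference between altitude effects in heart, -0.338 to -0.147 for brain minus heart, -0.290 to -0.192 for brain minus liver and -0.0978 to 0.0928 for heart minus liver. Brain minus liver passed without brain TC replicate 1, heart LC replicate 3 or liver LTC replicate 2.

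With the replicate block, IGF2R in brain minus liver was -0.24 and passed (adjusted p = 0.034). The labels do not say that the same number pairs libraries. Within a tissue every same-numbered pair correlated above 0.1 only for TC and LTC in brain (0.373 to 0.452). Across tissues, residuals of libraries with the same group and number correlated at 0.04 to 0.268 for brain and liver. The ranges were 0.009 to 0.249 for brain and heart, -0.127 to 0.253 for brain and lung and 0 to 0.197 for heart and liver. They were -0.032 to 0.215 for heart and lung and 0.045 to 0.292 for liver and lung. Whether tissues shared birds was not tested. The block also ended the calls of PHLPP1, STX16, PPT1, TBC1D1, NEDD4, FUCA1, ATP6V1H (difference between altitude effects) and SLC17A5.

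Counts of genes higher and lower for altitude in liver were 969 and 4136, against 1753 and 1809 after quantile normalization, 1686 and 2580 after upper quartile scaling, and 1877 lower with a mean of at least 5 FPKM. In brain the 229 higher became 73 with the block, 107 with the stricter filter and 407 in 1 fit of all libraries. By type, 1 fit of all libraries gave 475 higher and 460 lower in heart in place of 0 and 1, and 193 and 72 in lung in place of 2 and 3. The 853 genes lower by type in liver became 289 and 335 under the rescalings and 565 with the stricter filter, which also took the 1340 lower for altitude in lung to 840. The unknown depth limits what values under 1 FPKM can show, which covers IGF-I in brain and heart and in most lung libraries.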
